A study of Rattus norvegicus with 6 samples.

Results

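The genes Mgp, Ggact, Kctd13 and Nit1 were examined in cultured rat hippocampal neurons under overexpression and under knockdown of cyclin Y (CCNY). These 4 of the 17066 genes in the deposited table were chosen from the measured values themselves. Mgp and Ggact were taken because they were higher than the EGFP control in both conditions. Kctd13 and Nit1 were taken because their higher level in the overexpressing neurons passed an adjusted threshold under some settings of the analysis. Their differences from EGFP are therefore described here without a test, and nothing is supported with them.

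Primary neurons were prepared from hippocampi of Sprague-Dawley rat embryos at embryonic day 18 and then infected with lentivirus on in vitro day 5 or 6. Lentivirus is a vector that inserts its cargo into the genome of dividing and non-dividing cells. The virus carried EGFP alone (EGFP), CCNY fused to EGFP (CCNY-WT) or a short hairpin RNA against CCNY together with EGFP (CCNY-shRNA), so that every group was infected and expressed EGFP. The EGFP virus held no hairpin, and the labels name a single hairpin construct. Poly-A RNA was sequenced from 2 libraries per group, with RNA taken on day 14 in vitro. No source says whether the libraries of a group came from separate cultures. The p-values therefore rest only on the spread between these libraries, shared in the fit with that of genes at a similar level. Values are FPKM, fragments scaled to the length of the transcript and to all mapped fragments of the library, a scale that allows levels of different genes to be compared.

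Ccny itself followed the labels. Its FPKM was 43.1 and 42.3 under EGFP, 108 and 109 under CCNY-WT, and 5.98 and 6.19 under CCNY-shRNA. The table used here gives FPKM and not read counts, which leaves the depth of the libraries unknown. Relative to EGFP replicate 1 it was estimated at 0.818 to 1.33. Neuronal markers were abundant, with group means of 221 to 244 FPKM for Map2 and 46.2 to 47.2 for Rbfox3, and the astrocyte markers Gfap, at 113 to 129 FPKM on average per group, and Aqp4, at 16.9 to 18.6, were present as well. The microglial markers Aif1 and Cx3cr1 were listed at 0 in every library. In RNA from a whole culture, fewer cells of a type and less RNA per cell cannot be told apart.

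The 4 genes have different roles. Mgp encodes matrix Gla protein, a small secreted protein that needs vitamin K-dependent carboxylation, binds bone morphogenetic proteins and inhibits calcification of soft tissue and vessel walls. Ggact encodes gamma-glutamylamine cyclotransferase, which splits the gamma-glutamyl-lysine dipeptides left when transglutaminase cross-links between proteins are broken down. Kctd13 encodes a BTB-domain adaptor of the CUL3 ubiquitin ligase, known to direct the small GTPase RhoA to degradation, and the gene lies in a chromosomal region whose human counterpart is deleted or duplicated in neurodevelopmental disorders. Nit1 encodes an amidase of the nitrilase family that hydrolyses deaminated glutathione, a side product of transaminases, and that in flies and worms is fused to the tumour suppressor Fhit.

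The promoters of genes that were higher in the same libraries are shown to let their start regions be compared. RefSeq promoter windows of 300 bases, 250 before and 50 after the annotated start, were at hand for 3 of the 4 genes, Ggact, Kctd13 and Nit1. On the rat assembly GRCr8 they lie at chr15:106399428-106399727 on the minus strand for Ggact, at chr1:190964823-190965122 on the plus strand for Kctd13, and at chr13:86305721-86306020 on the minus strand for Nit1. Each is written 5′ to 3′ on the strand of its gene, with matches to a GC box (GGGCGG) or a TGACG motif, the core of the cyclic AMP response element, on either strand in capitals.
Ggact: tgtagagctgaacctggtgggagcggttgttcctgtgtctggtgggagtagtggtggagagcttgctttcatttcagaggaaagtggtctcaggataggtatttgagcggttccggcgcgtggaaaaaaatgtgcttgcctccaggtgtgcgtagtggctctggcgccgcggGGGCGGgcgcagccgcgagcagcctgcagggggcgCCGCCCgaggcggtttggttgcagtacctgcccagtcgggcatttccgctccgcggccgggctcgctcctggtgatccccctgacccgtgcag
Kctd13: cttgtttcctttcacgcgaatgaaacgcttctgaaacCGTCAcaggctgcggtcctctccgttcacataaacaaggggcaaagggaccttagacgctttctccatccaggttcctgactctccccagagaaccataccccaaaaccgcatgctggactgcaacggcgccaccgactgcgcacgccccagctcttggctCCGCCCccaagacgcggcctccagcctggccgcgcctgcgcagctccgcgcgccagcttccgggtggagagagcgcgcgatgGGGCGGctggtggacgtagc
Nit1: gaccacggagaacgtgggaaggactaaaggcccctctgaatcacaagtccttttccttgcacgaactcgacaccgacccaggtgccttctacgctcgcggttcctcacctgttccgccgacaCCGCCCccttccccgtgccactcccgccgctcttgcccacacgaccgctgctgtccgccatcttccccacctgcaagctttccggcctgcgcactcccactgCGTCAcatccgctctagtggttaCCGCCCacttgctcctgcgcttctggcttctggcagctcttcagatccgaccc
All 3 windows held 2 GC boxes each, a motif found in 33.1% of 33469 windows of the same length. The motif TGACG was found once in the Kctd13 window and once in the Nit1 window, and in 21.2% of all windows. The 3 windows were rich in G and C, at 64.0% for Ggact, 63.7% for Kctd13 and 63.0% for Nit1, against a median of 51.7%. At or above these in G and C were 17.9%, 18.5% and 19.8% of all windows. The 3 held 24, 28 and 24 CpG dinucleotides against a median of 7. None of the 3 held a TATA box (TATAAA), which was found in 14.2% of all windows. A CCAAT box (in 37.5% of all windows), an E box with the letters CACGTG (6.42%), an amino acid response element with the letters TGATGNAA (3.98%) and the core TGACNNNGC of the antioxidant response element (12.1%) were likewise in none of the 3. All motifs were searched on both strands. A match is a description of the letters and not a site of binding. The Nit1 window shared 157 bases with that of Pfdn2, a prefoldin subunit gene that starts in the opposite direction.

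Mgp had the largest difference of the 4 genes. Its FPKM was 4.07 and 5.11 under EGFP, 8.15 and 8.21 under CCNY-WT, and 14.3 and 21.5 under CCNY-shRNA. The 3 groups did not overlap, with EGFP lowest and CCNY-shRNA highest. Over all tested genes, 20.3% were higher in all 4 pairings of a CCNY-WT with an EGFP library, 23.9% in those of CCNY-shRNA with EGFP, and 20.3% in those of CCNY-shRNA with CCNY-WT. The group means were 4.59 ± 0.731, 8.18 ± 0.0425 and 17.9 ± 5.08 in the same order (SD, n = 2 each). The mean was 1.78 times that of EGFP under overexpression and 3.90 times under knockdown. Over the 4 pairings of single libraries the fold ranged from 1.60 to 2.02 in CCNY-WT and from 2.80 to 5.28 in CCNY-shRNA. On the scale of log2 FPKM, with values under 1 set to 1, the differences from EGFP were 0.84 and 1.94, each with a limma standard error of 0.20.

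Ggact was expressed at a similar level to Mgp in the control but was higher by a smaller amount. Its FPKM was 4.02 and 4.11 under EGFP, 6.28 and 7.04 under CCNY-WT, and 7.31 and 7.65 under CCNY-shRNA. The groups again stood in the same order without overlap, although the higher CCNY-WT library came within 1.04-fold of the lower CCNY-shRNA library. The means were 4.07 ± 0.0628, 6.66 ± 0.537 and 7.48 ± 0.244 (SD, n = 2 each), which made 1.64-fold of EGFP in CCNY-WT and 1.84-fold in CCNY-shRNA. The log2 differences from EGFP were 0.71 and 0.88, with a standard error of 0.14.

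Kctd13 was the most abundant of the 4 genes in every library. Its FPKM was 46.8 and 44.2 under EGFP, 66.8 and 71.6 under CCNY-WT, and 63.2 and 66.2 under CCNY-shRNA. Both CCNY-WT libraries were above both CCNY-shRNA libraries, the nearest at 66.8 and 66.2, and all 4 were above EGFP. Over all tested genes, 21.9% were lower in all 4 pairings of a CCNY-shRNA with a CCNY-WT library. The means were 45.5 ± 1.85, 69.2 ± 3.41 and 64.7 ± 2.11 (SD, n = 2 each). They made 1.52-fold of EGFP in CCNY-WT and 1.42-fold in CCNY-shRNA, or log2 differences of 0.60 and 0.51 with a standard error of 0.06.

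Nit1 showed nearly the same picture as Kctd13 at a lower level. Its FPKM was 36.4 and 37.1 under EGFP, 58.8 and 53.4 under CCNY-WT, and 52.6 and 53.6 under CCNY-shRNA. The CCNY-WT and CCNY-shRNA libraries overlapped, and all 4 were above both EGFP libraries. The means were 36.7 ± 0.462, 56.1 ± 3.80 and 53.1 ± 0.707 (SD, n = 2 each). The fold over EGFP was 1.53 in CCNY-WT and 1.44 in CCNY-shRNA, and the log2 differences were 0.61 and 0.53 with a standard error of 0.07.

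**Figure D1:**
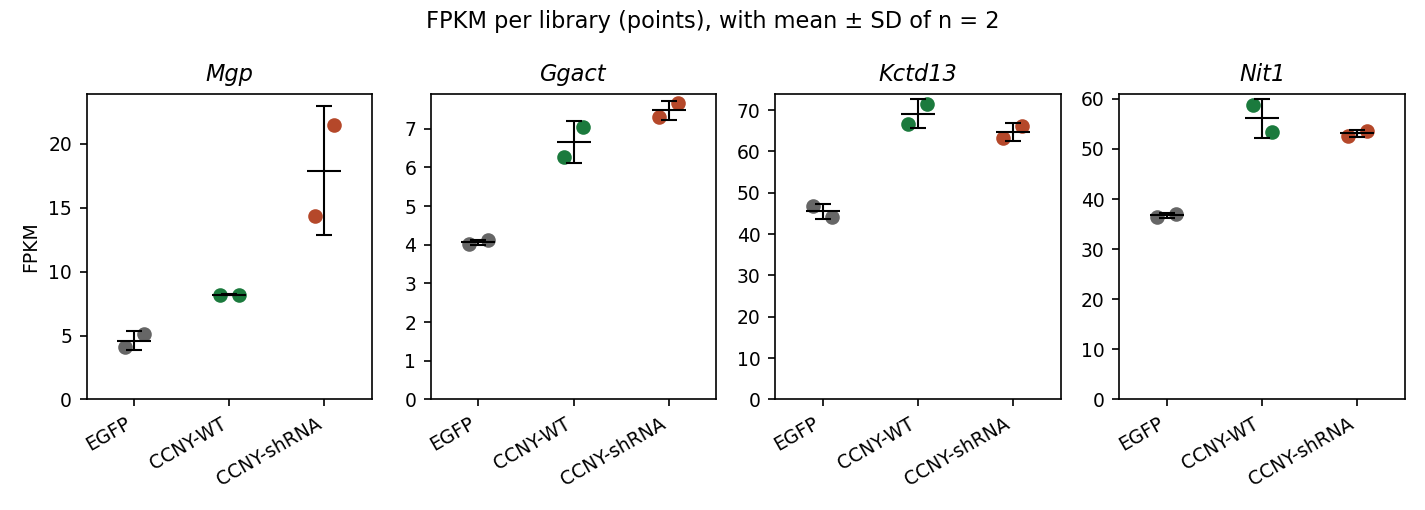
FPKM of Mgp, Ggact, Kctd13 and Nit1 in each library, 1 panel per gene, with the group on the horizontal axis. Points are libraries, the wide line is the group mean and the capped bar the SD (n = 2); all 4 libraries of CCNY-WT and CCNY-shRNA lie above both EGFP libraries in each panel, and only Mgp is far higher in CCNY-shRNA (14.3 and 21.5) than in CCNY-WT (8.15 and 8.21).

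The levels also gave an order among the genes. In EGFP, Kctd13 was above Nit1, and both were well above Mgp and Ggact, whose ranges of 4.07 to 5.11 and 4.02 to 4.11 overlapped. In CCNY-WT both Mgp libraries, at 8.15 and 8.21, were above both Ggact libraries. Among the 10188 tested genes, ordered from low to high by mean EGFP level, Ggact stood at the percentile 17.5, Mgp at 19.6, Nit1 at 71.0 and Kctd13 at 75.9. The 2 pairs thus came from different ranges of expression. For a transcript of a given length a lower FPKM rests on fewer fragments, and the pair at lower level had the larger standard errors, 0.20 and 0.14 against 0.06 and 0.07. The fit draws these errors toward a trend with the mean level, so the gap is partly set by the fit. Between replicates, the SD of log2 values was 0.02, 0.12 and 0.05 for Ggact in EGFP, CCNY-WT and CCNY-shRNA. For Kctd13 it was 0.06, 0.07 and 0.05.

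The differences are placed here among all genes, as a description of how the 4 were picked. Both comparisons use the same 2 EGFP libraries, so a low value in EGFP raises both. All 4 genes had the 4 CCNY-WT and CCNY-shRNA libraries above both EGFP libraries, as did 10.6% of the tested genes, and 10.7% had them all below. With the thresholds on the log2 difference that the study used, 0.3 for CCNY-WT and 0.33 for CCNY-shRNA, 4.59% of the tested genes were higher in CCNY-WT and 5.52% in CCNY-shRNA. Past both thresholds, 176 genes or 1.73% were higher in both conditions and 1.59% were lower in both. The 4 genes are among these 176. Ordered by the smaller of the 2 differences, Mgp stood at rank 6, Ggact at 12, Nit1 at 35 and Kctd13 at 38. In CCNY-shRNA alone Mgp had rank 4 among all tested genes and Ggact 28, against 149 for Nit1 and 173 for Kctd13. In CCNY-WT alone the ranks lay closer together, at 24 for Mgp, 46 for Ggact, 73 for Nit1 and 79 for Kctd13.

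By limma, with the Benjamini-Hochberg adjustment and a threshold of 0.05, 17 genes or 0.167% were called higher in CCNY-shRNA than in EGFP and 0.579% lower, and the 4 genes are among these 17. In CCNY-WT against EGFP 1 gene or 0.00982% was called higher, which was Ccny itself. Of 15 other settings, Kctd13 and Nit1 were called in CCNY-WT under 2, log2(FPKM + 1) and a filter on the mean FPKM, and Mgp and Ggact under 0. In CCNY-shRNA Mgp was called under 10 of the 15 settings, Nit1 under 9, Kctd13 under 8 and Ggact under 5. Since these calls chose the genes, nothing is read from them.

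The direct comparison of CCNY-shRNA with CCNY-WT uses the same libraries and is likewise a description. The mean of Mgp in CCNY-shRNA was 2.19 times that in CCNY-WT, a log2 difference of 1.10 ± 0.20 (SE), and the fold over the 4 pairings ranged from 1.74 to 2.64. For Ggact the ratio was 1.12 and the log2 difference 0.17 ± 0.14. For Kctd13 and Nit1 the ratios were 0.935 and 0.947, and the log2 differences -0.10 ± 0.06 and -0.08 ± 0.07. Over all tested genes 2 were called higher in CCNY-shRNA than in CCNY-WT, or 0.0196%, and 20 lower, or 0.196%. None of the 4 was among them, although Mgp was called when CCNY-shRNA replicate 1 was left out.

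The other genes of the pathways around the 4 were described from 7 lists written from general knowledge. They hold 128 genes of the table, of which 87 were tested. By limma, 0 of the 87 passed the adjusted threshold in either direction in any of the 3 comparisons. Of all tested genes at most 0.579% passed it in any 1 direction, so a count of 0 among these 87 says little. At an unadjusted p under 0.05, 5 were higher and 2 lower in CCNY-WT than in EGFP, and 8 were higher and 7 lower in CCNY-shRNA, where the shares of all genes were 3.83% and 3% for CCNY-WT, and 9.2% and 9.36% for CCNY-shRNA. Between CCNY-shRNA and CCNY-WT 6 were higher and 5 lower, against 5.05% and 7.12% of all genes.

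Around Mgp, 8 of 19 genes of the vitamin K cycle and the Gla proteins were tested, with a median log2 difference of -0.02 in CCNY-WT and -0.12 in CCNY-shRNA, where the median of all tested genes was 0.00 in both. Ggcx, the carboxylase that modifies Gla proteins, had an FPKM of 9.97 and 10.4 under EGFP, 10.2 and 9.98 under CCNY-WT, and 8.50 and 8.82 under CCNY-shRNA. Vkorc1, the reductase that recycles vitamin K, had 15.6 and 16.5, then 14.6 and 14.8, then 13.1 and 13.5 in the same order. The levels of both were lowest in CCNY-shRNA, where Mgp was highest. The related reductase Vkorc1l1 had a log2 difference of -0.48 ± 0.10 (SE) in CCNY-shRNA, with an adjusted p of 0.0768 by limma. Gas6, another Gla protein and a ligand of TAM receptors, was at 72.4 to 78.7 FPKM in all libraries, and Pros1, the Gla protein most like it, was listed at 0.

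Mineralization and bone morphogenetic protein signalling are the processes on which Mgp is known to act. Of 26 listed genes 17 were tested, with median log2 differences of -0.06 in CCNY-WT and -0.05 in CCNY-shRNA. In CCNY-shRNA they ranged from -0.48 to 0.50. At an unadjusted p under 0.05 by limma, 1 was higher and 1 lower there, where 9.2% and 9.36% of all genes were. The lower one was the receptor gene Bmpr1a, at -0.48 ± 0.11 (SE), with an adjusted p of 0.0915 by limma. Ankh, which exports pyrophosphate, an inhibitor of mineral growth, averaged 85.9 FPKM under EGFP, 85.1 under CCNY-WT and 80.5 under CCNY-shRNA. Bmp2 averaged 1.04, 0.983 and 1.03 in the same order, and Bmp4 stayed at or under 0.134 in every library. These 2 ligands that Mgp is known to bind were thus at the lower edge of what was measured.

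Around Ggact, all 5 transglutaminase genes in the table stayed under 1 FPKM in every library, so that none was tested. Tgm2, the widely expressed member, ranged from 0.123 to 0.349. Of 22 genes of glutathione and gamma-glutamyl metabolism, 15 were tested, with medians of 0.13 in CCNY-WT and 0.10 in CCNY-shRNA. Gclc, the catalytic subunit of the first enzyme of glutathione synthesis, had 28.3 and 24.9 FPKM under EGFP, 29.6 and 31.4 under CCNY-WT, and 28.8 and 29.5 under CCNY-shRNA. Gsr, which reduces oxidised glutathione, had 21.2 in both EGFP libraries, 22.3 and 24.5 under CCNY-WT, and 28.6 and 25.5 under CCNY-shRNA, with a log2 difference of 0.35 ± 0.09 (SE) and an adjusted p of 0.107 by limma in CCNY-shRNA. Ggct, whose product acts on other gamma-glutamyl compounds, was listed at 0 in every library, which can also be a failed estimate.

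Around Kctd13, 25 of 28 genes of the KCTD family and the CUL3 ligase were tested, with medians of 0.02 in CCNY-WT and 0.05 in CCNY-shRNA. Tnfaip1, the close paralog of Kctd13 that also serves CUL3, had 21.8 and 21.4 FPKM under EGFP, 23.6 and 23.3 under CCNY-WT, and 23.1 and 25.2 under CCNY-shRNA. Its log2 differences were 0.12 and 0.16 with a standard error of 0.08. Cul3, the scaffold of the ligase, had 54.4 and 54.2 under EGFP, 48.7 and 54.2 under CCNY-WT, and 50.8 and 51.2 under CCNY-shRNA. Rbx1, the RING subunit, averaged 103 under EGFP, 109 under CCNY-WT and 113 under CCNY-shRNA. Rhoa, the known substrate, was listed at 0 in every library, as was Gpx1 of the glutathione list. Both are genes that most cells use, so a 0 there can be a failed estimate.

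Around Nit1, 6 of 9 genes of the nitrilase superfamily and Fhit were tested, with medians of 0.04 and -0.12. Nit2, the paralog that hydrolyses other omega-amidated acids, had 24.6 and 26.4 FPKM under EGFP, 25.4 and 29.6 under CCNY-WT, and 23.2 and 30.5 under CCNY-shRNA, so its groups overlapped. Fhit, the fusion partner in flies and worms, had 7.48 and 9.70, then 5.69 and 12.3, then 5.29 and 9.18 in the same order. Its replicates differed more than its groups.

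**Figure D2:**
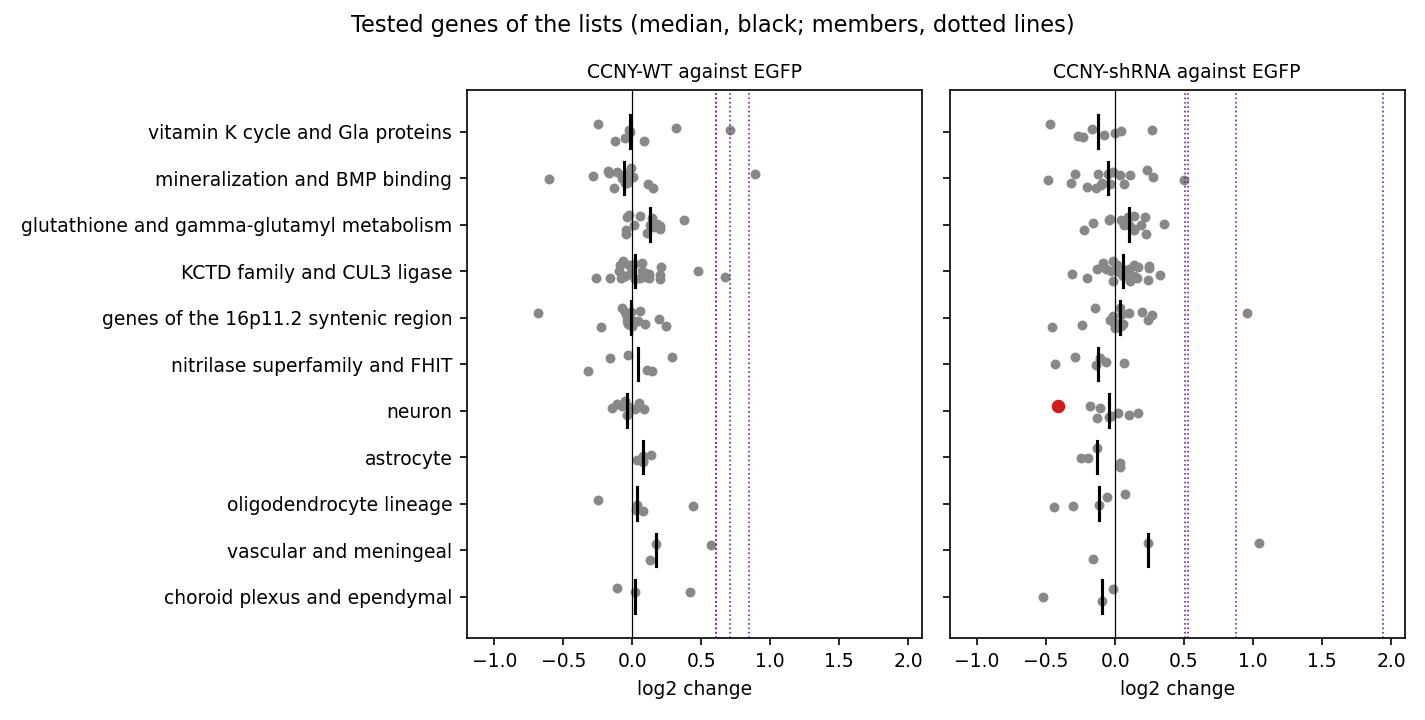
Log2 difference from EGFP of each tested gene of the lists, with CCNY-WT in the left panel and CCNY-shRNA in the right panel. Grey points are genes that did not pass limma's adjusted threshold, the red point is Gad2, which did, black bars are list medians, and dotted lines mark Mgp, Ggact, Kctd13 and Nit1; the medians of the pathway lists lie between -0.12 and 0.13, left of every dotted line.

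The chromosomal neighbours of the 4 genes were examined next, taken as the 2 nearest protein-coding genes on each side in the RefSeq table of GRCr8, which was used for gene order only. Of the 16 neighbours 13 were in the table and 11 were tested. By limma 0 of the 11 passed the adjusted threshold in any comparison, where at most 0.579% of all tested genes passed in any 1 direction. A count of 0 among so few genes therefore says little. The smallest adjusted p-values were 0.729 in CCNY-WT against EGFP, 0.0952 in CCNY-shRNA against EGFP and 0.333 between CCNY-shRNA and CCNY-WT. At an unadjusted p under 0.05 there were 1, 3 and 1 neighbours in the same order, Ufc1 in both comparisons with EGFP, Sez6l2 in CCNY-shRNA against EGFP, and Pfdn2 in both comparisons of CCNY-shRNA. In either direction, the shares of all genes at that p were 3.83% higher and 3% lower, 9.2% and 9.36%, and 5.05% and 7.12%. Their log2 differences from EGFP ranged from -0.17 to 0.31 in CCNY-WT and from -0.18 to 0.32 in CCNY-shRNA.

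Next to Ggact, the propionyl-CoA carboxylase gene Pcca had 12.9 and 13.9 FPKM under EGFP, 12.9 and 11.1 under CCNY-WT, and 13.7 and 12.5 under CCNY-shRNA. The transcription factor gene Zic2 had 2.77 and 2.60, then 2.74 and 2.84, then 3.09 and 3.53 in the same order. On the other side Tmtc4 had 9.28 and 9.01, then 8.32 and 9.42, then 7.93 and 8.17, and the sodium leak channel gene Nalcn had 24.9 and 28.0, then 26.7 and 22.1, then 27.4 and 26.0. Next to Kctd13, the kinase gene Taok2 had 40.4 and 42.2, then 42.8 and 39.5, then 43.9 and 41.5, and Sez6l2 averaged 147, 143 and 133. The wider region around Kctd13 had 17 of 20 listed genes tested, with medians of -0.01 in CCNY-WT and 0.03 in CCNY-shRNA. Single genes of it ranged from -0.68 to 0.25 in CCNY-WT and from -0.46 to 0.95 in CCNY-shRNA. The highest value in CCNY-shRNA was thus above the 0.51 of Kctd13. Among the neighbours of Mgp, which were nearly silent, only Arhgdib was tested, at 0.327 to 1.39 FPKM. It averaged 0.521 under EGFP, 0.912 under CCNY-WT and 1.02 under CCNY-shRNA, and its groups overlapped. Its log2 differences of 0.10 and 0.24 understate these means, since values under 1 were set to 1.

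Next to Nit1, Dedd, which encodes a death effector domain protein, had 19.7 and 18.3 FPKM under EGFP, 19.2 and 18.6 under CCNY-WT, and 15.7 and 18.4 under CCNY-shRNA, with log2 differences of -0.01 and -0.16. Beyond it Ufc1, a conjugating enzyme of the ubiquitin-like modifier Ufm1, had 78.1 and 67.5 FPKM under EGFP, 80.0 and 84.7 under CCNY-WT, and 89.0 and 92.4 under CCNY-shRNA. On the other side Klhdc9 had 2.77 and 5.18, then 4.65 and 4.74, then 4.14 and 5.26, so its groups overlapped. Pfdn2, whose gene model overlaps that of Nit1 on the opposite strand, had 100 and 96.9, then 95.3 and 99.6, then 105 and 116. Its log2 differences of -0.02 and 0.16 were smaller than the 0.61 and 0.53 of Nit1. The labels name a kit that marks strand, but whether strand was used in counting is not given in the sources used here, and where it was not, reads of Nit1 and Pfdn2 in the shared stretch cannot be told apart.

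**Figure D3:**
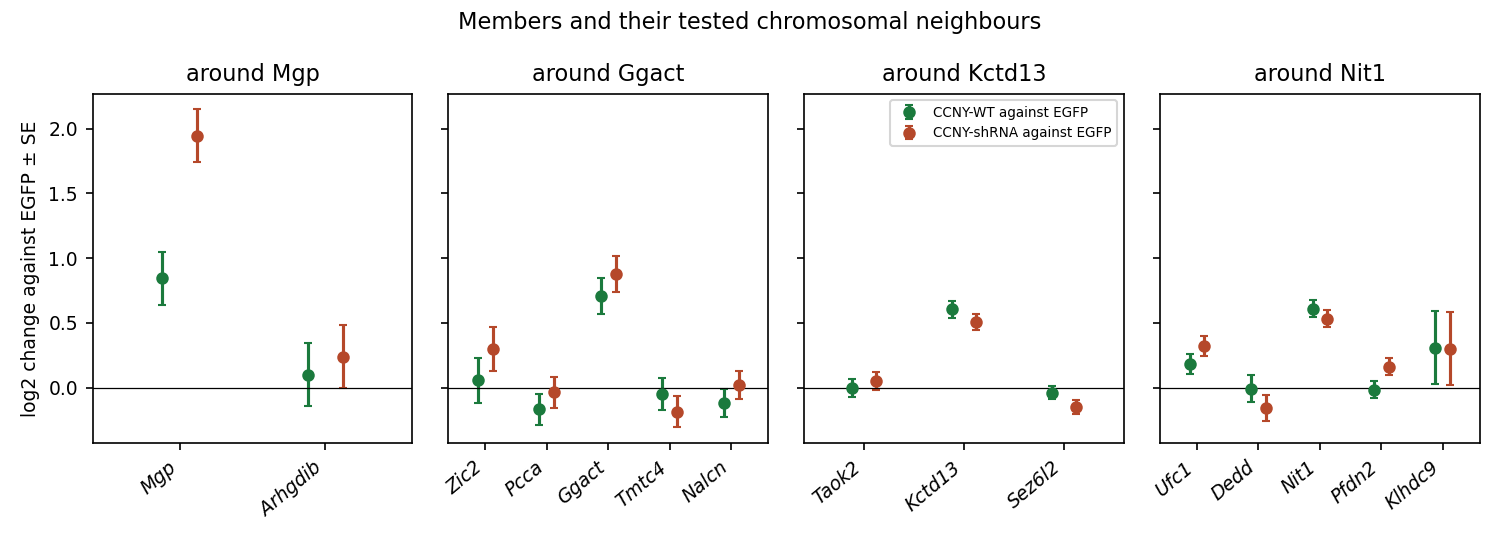
Log2 difference from EGFP of Mgp, Ggact, Kctd13 and Nit1 and of their tested neighbours in chromosomal order, 1 panel per gene, with limma standard errors as bars. Green points are CCNY-WT and red points CCNY-shRNA. The neighbours lie between -0.18 and 0.32, below the gene they flank in each panel. For Arhgdib, the only neighbour shown for Mgp, values under 1 were set to 1, which understates its difference.

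Mgp is known in brain mainly from cells of vessels and meninges, so the markers of those cells are given beside it. Of 12 vascular and meningeal markers measured, 9 stayed under 1 FPKM in every library, among them Col1a1, Col3a1, Pdgfrb and Pecam1, and the endothelial marker Cldn5 was listed at 0. The summed FPKM of the 12 was 67.3 to 77.5 under EGFP, 79.7 to 80.1 under CCNY-WT and 70.7 to 71.8 under CCNY-shRNA. The median log2 difference of the 3 tested markers, Lum, Dcn and Tagln, was 0.17 in CCNY-WT and 0.24 in CCNY-shRNA. Lum, a proteoglycan of fibroblasts, made up most of the sum, with 50.1 and 56.0 under EGFP, 56.1 and 59.7 under CCNY-WT, and 46.0 and 49.0 under CCNY-shRNA. Dcn, a related proteoglycan, averaged 14.1, 15.8 and 16.5 in the same order. Tagln, a marker of smooth muscle, had 1.76 and 3.93, then 3.84 and 3.98, then 6.68 and 4.39. The means of Dcn and Tagln stood in the order of those of Mgp, and that of Lum did not. For Tagln the log2 differences were 0.57 ± 0.36 and 1.04 ± 0.36 (SE), with adjusted p-values of 0.805 and 0.186 by limma. By limma 0 of the 3 passed the adjusted threshold, which at most 0.579% of all tested genes passed in any 1 direction of a comparison. At an unadjusted p under 0.05 Tagln was higher in CCNY-shRNA than in EGFP, as were 9.2% of all genes. Lum was lower at that p in CCNY-shRNA than in CCNY-WT, as were 7.12% of all genes. The part of these cells in the level of Mgp was not tested.

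Of the 25 tested markers of 6 lists of cell types, 1 passed limma's adjusted threshold. Gad2, which makes GABA in inhibitory neurons, fell in CCNY-shRNA, from 170 and 173 FPKM in EGFP, and 176 and 181 in CCNY-WT, to 129 in both libraries. The adjusted p was 0.0226 against EGFP and 0.0165 against CCNY-WT by limma, and of all genes 0.579% and 0.196% were called lower in these comparisons. At an unadjusted p under 0.05, 0 of the 25 markers were higher or lower in CCNY-WT, where 3.83% and 3% of all genes were, and 2 were higher and 5 lower in CCNY-shRNA against EGFP, where 9.2% and 9.36% of all genes were. The median log2 difference of the 9 neuronal markers was -0.04 in both conditions, and that of the 5 astrocyte markers was 0.08 in CCNY-WT and -0.13 in CCNY-shRNA. Those of the 5 tested oligodendrocyte markers were 0.04 and -0.12, those of the 3 tested choroid plexus markers 0.02 and -0.10, and all 6 microglial markers stayed under 1 FPKM. Gad2 lost its call without any 1 of the EGFP or CCNY-WT libraries, and with no filter, no trend or only the 2 groups compared.

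The genes whose pattern was most like each of the 4 were found by Pearson's r over the 6 libraries, among 5758 tested genes whose log2 values spanned at least 0.3. The 6 points hold 3 groups of 2, so that genes with the same order of groups tend to reach a high r, and the values are a description. Between 57 and 164 genes had an r above 0.9 with each of the 4, fewest for Nit1 and most for Mgp, with 116 for Ggact and 72 for Kctd13.

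Most like Mgp were Mrps34, a protein of the mitochondrial ribosome, at an r of 0.997, then Qsox2 at 0.991, Tmem114 at 0.990, Kcnk15 at 0.988 and Mpc1, a subunit of the mitochondrial pyruvate carrier, at 0.984. Mpc1 had 106 and 111 FPKM under EGFP, 117 and 124 under CCNY-WT, and 135 and 151 under CCNY-shRNA. Mrps34 had 29.6 and 30.7, then 32.6 and 32.5, then 35.9 and 38.3. They shared the order of the groups with Mgp but spanned a far smaller range.

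Most like Ggact were Acss1, an acetyl-CoA synthetase of mitochondria, at 0.990, Gfod2 at 0.984, the tubulin acetyltransferase Atat1 at 0.981, Rragd at 0.979 and Rnf168 at 0.977. Atat1 had 45.6 and 44.0 FPKM under EGFP, 50.3 and 51.9 under CCNY-WT, and 54.0 and 54.5 under CCNY-shRNA.

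Most like Kctd13 were Nf2, which encodes merlin, at 0.991, Lin37 at 0.988, Cyb5r3 at 0.987, Nsmf at 0.986 and Ddx39a at 0.982. Most like Nit1 were Ddn at 0.987, Nsmf at 0.979, Guk1 at 0.975, and Psd and Dnajc2 at 0.968 each. Nsmf, which encodes a protein known to travel from synapses to the nucleus, was the only gene named for 2 of the 4. It had 239 and 236 FPKM under EGFP, 311 and 315 under CCNY-WT, and 306 and 298 under CCNY-shRNA. Ddn, which encodes the postsynaptic protein dendrin, had 112 and 111, then 147 and 144, then 135 and 137. Nf2 had 44.2 and 41.6, then 54.0 and 59.0, then 52.4 and 54.0.

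**Figure D4:**
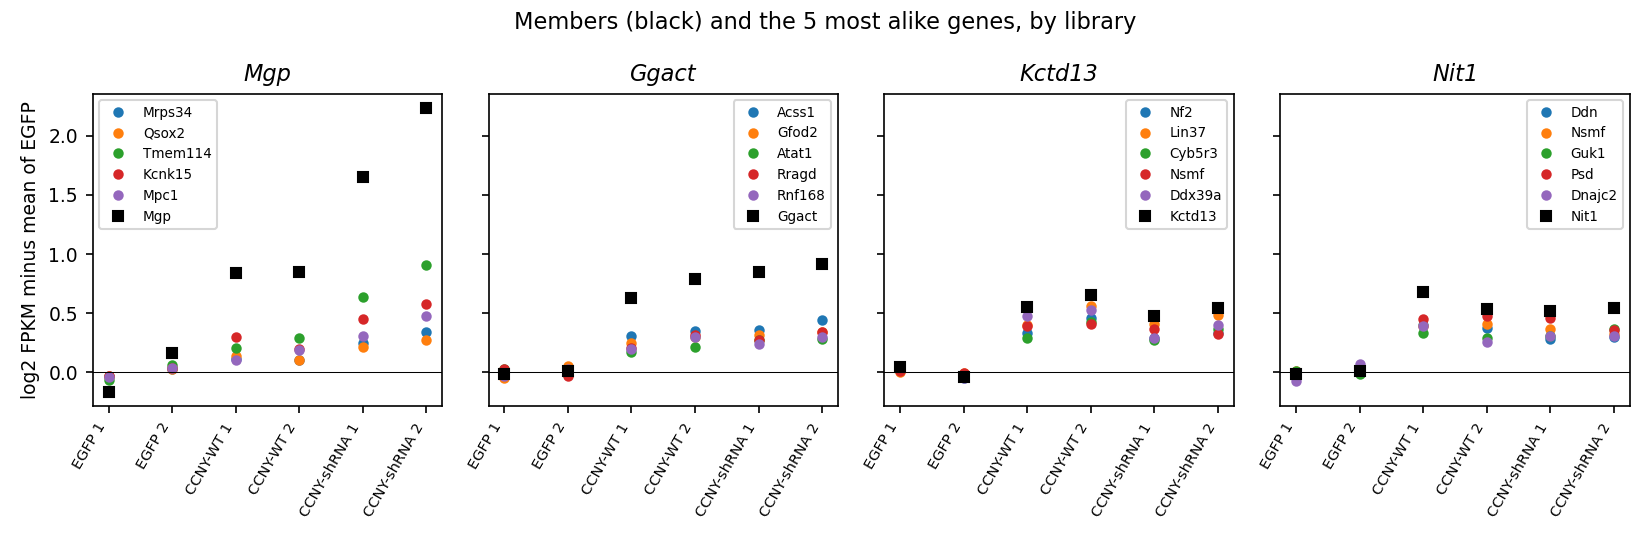
Log2 FPKM of each library minus the mean of the EGFP libraries, for Mgp, Ggact, Kctd13 and Nit1 (black squares) and the 5 genes with the highest Pearson's r to each (coloured points), 1 panel per gene. The alike genes lie above 0 in every library of CCNY-WT and CCNY-shRNA, and in each of these 4 libraries the black square is the highest point of its panel.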

How the data were processed

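RNA was sequenced from 6 libraries of rat hippocampal neurons, 2 per group. The authors deposited a table of 17066 genes with an FPKM value for each library. Per the labels, they used the rat build rn4, TopHat2 2.0, Bowtie2 2.1.0, Cufflinks 2.2.1, SAMtools 0.1.19 and R 3.1.0, while the annotation and any further scaling are not given in the sources used here. Depth relative to EGFP replicate 1 was estimated from the steps between low FPKM values of 1718 genes.

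As in the study, FPKM values under 1 were set to 1 before taking log2. A log2 difference on this scale understates the change of genes near or under 1. limma 3.58.1 in R 4.3.3 (lmFit, contrasts.fit, eBayes with trend) was fitted over all 6 libraries to the 10188 genes that reached an FPKM of 1 in 2 or more libraries, with the Benjamini-Hochberg adjustment over all of them and a threshold of 0.05. In data simulated for CCNY-shRNA against EGFP over 10188 genes, 94.5% of 200 genes changed by 1 on the log2 scale were recovered. There were 7 false calls, and 0 calls were made for CCNY-WT, simulated without change. Every simulated gene was given the spread typical of its level, which favours a fit with trend. Measured genes of a similar level differ in spread. Recovery with such differing spreads, and of changes smaller than 1, was not tested. Of the 4 genes, only Mgp in CCNY-shRNA, at 1.94, differed from EGFP by more than 1. The share of false calls among the measured genes was not tested.

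The 4 genes and all lists were chosen with earlier results of these data known. Genes named with values were the 4 genes, Ccny, list genes past the threshold, close paralogs, partners and defining markers, 2 neighbours on each side, and the 5 genes most alike by r over genes spanning at least 0.3. Of 194 listed symbols 174 were matched. Promoter windows came from RefSeq tables of GRCr8, a later build than that of the deposited values. Alternatives covered the offset, filter, scaling, estimate of the spread, replicate block, threshold and leaving out each library. Tables and figures were made in Python 3.11.15 with matplotlib 3.10.9, numpy 2.4.6 and pandas 2.3.3. Protein data were not analysed here.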

Additional observations from a re-analysis of the deposited data

How the results depend on the processing

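For the 4 genes, the 2 filters, no trend, only the 2 groups compared and the replicate block leave the differences as they are by construction, and leaving out 1 of 2 libraries cannot move a mean by more than the SD. Of the 48 values under the 2 offsets and 2 scalings, which can move, 46 moved by less than the SD between replicates and 0 changed sign. The others were those of Ggact with log2(FPKM + 1), 0.59 in CCNY-WT and 0.74 in CCNY-shRNA. A shift of 0.21 was the largest, for Mgp in CCNY-shRNA with log2(FPKM + 1). Leaving out single libraries gave 0.68 to 1.01 for Mgp in CCNY-WT, 1.65 to 2.24 in CCNY-shRNA and 0.81 to 1.39 between them. The ranges in the same order were 0.63 to 0.79, 0.85 to 0.91 and 0.09 to 0.25 for Ggact, 0.55 to 0.65, 0.47 to 0.55 and -0.15 to -0.05 for Kctd13, and 0.54 to 0.68, 0.52 to 0.54 and -0.15 to -0.01 for Nit1. The calls over all genes moved with the settings. Against 1 gene higher in CCNY-WT, log2(FPKM + 1) and a filter on the mean FPKM gave 3 each, and 0 were lower in every fit. Against 17 higher in CCNY-shRNA than EGFP, the filter on the mean gave 30, no filter 1, and no trend or a fit of only the 2 groups compared 0. Against 59 lower, no filter, no trend and only the 2 groups gave 1 each. Between CCNY-shRNA and CCNY-WT, no filter gave 1 higher against 2, and no trend and only the 2 groups 0, while all 3 gave 1 lower against 20. The same 3 settings left 0 cell type markers lower in either comparison. A group left with 1 library was assumed to vary like the others. Without single libraries, 1 gene was called higher in CCNY-WT each time. In CCNY-shRNA against EGFP 0 to 40 were higher (0 without either EGFP library, 40 without CCNY-shRNA replicate 1) and 1 to 46 lower. Against CCNY-WT 0 to 3 were higher and 1 to 19 lower, and 0 to 1 markers were lower in each. Pathway genes called stayed at 0 under all settings. Genes past both thresholds, 176 higher and 171 lower over all genes, became 153 and 145 with log2(FPKM + 1), 620 and 804 with log2(FPKM + 0.1), 39 and 42 at a threshold of 0.5, 1 and 5 at 1, and 178 to 335 and 175 to 337 without single libraries, most without EGFP replicate 1. The cause was not tested.

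Deviations of libraries with the same replicate number correlated at 0.053, 0.038 and 0.054 over 10188 genes. Correlations over all genes cannot show whether libraries with the same number shared a culture or a day, so pairing remains unknown. With the replicate block 8 genes were called higher and 31 lower in CCNY-shRNA than EGFP, and 1 higher than CCNY-WT. With 2 libraries per group and no read counts, the precision of low values such as those of Mgp and Ggact cannot be stated beyond the spread shown.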

Other observations

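Of the genes higher in both conditions past the thresholds, 8 in addition to Mgp had the 4 CCNY-WT and CCNY-shRNA libraries above both EGFP libraries and stood above Ggact in the order by the smaller difference. They are named after their values were seen and are given without a test. Nupr1, a stress-responsive chromatin protein, averaged 0.567 ± 0.299 FPKM under EGFP, 1.96 ± 0.995 under CCNY-WT and 3.27 ± 0.594 under CCNY-shRNA (SD, n = 2 each). Nenf, which encodes the secreted factor neudesin, averaged 3.50 ± 0.716, 6.29 ± 1.07 and 6.99 ± 1.69. Nt5m, a mitochondrial nucleotidase, averaged 4.67 ± 2.09, 7.82 ± 0.781 and 8.30 ± 2.55. Gchfr, which regulates tetrahydrobiopterin synthesis, averaged 1.68 ± 0.884, 2.69 ± 0.314 and 2.80 ± 0.682. The others were LOC680663, Cfap52, Hist2h2ab and Ubtd1. The gene at rank 1, LOC100911576, had 58.8 FPKM in EGFP replicate 1 and 0.0174 in EGFP replicate 2, so its place rests on 1 library.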
